A study of Mus musculus with 4 samples.

Results

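The 10 genes described here encode the mucins of the gut surface and the products of goblet cells, the mucus-secreting cells of the epithelium. They were chosen by symbol: 4 membrane mucins (Muc1, Muc3, Muc4 and Muc13) and 6 secreted goblet cell products (Muc2, Tff3, Fcgbp, Clca1, Zg16 and Agr2). All 10 were found among the 22180 genes that had a probe set with a single gene symbol, on 11 probe sets in all, Muc2 having 2. Expression was measured in mouse caecal tissue on Affymetrix arrays, 1 array per group, each hybridised with RNA pooled from 6 mice that had been picked for RNA quality.

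Every mouse was C57Bl/6, 21 weeks of age, and given food depleted of n-3 polyunsaturated fatty acids (n-3 PUFA). The 4 groups were wild type (WT) on this diet, WT on this diet with prebiotics, apoE knock-out (KO) on this diet, and apoE KO on this diet with prebiotics. Apolipoprotein E clears lipoprotein remnants from blood, and prebiotics feed fermenting bacteria of the gut; the labels name Orafti P95, at 250 mg a day per mouse, during the final 15 days. Both the controls and the prebiotic groups thus lacked n-3 PUFA, and no group on a complete diet was analysed here. For the WT arrays the labels conflict: on each, 3 fields (among them the title) state a diet and 1 field, the description, states the other. WT arrays are called by their titles below, and the main results that need the WT diet are also given with the WT pair exchanged. Since a group is 1 pooled sample, no value has a replicate of its own group.

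Mucus covers the caecal epithelium and is built on the gel-forming mucin Muc2, which goblet cells release from granules. Fcgbp is a mucus protein that associates with Muc2, Clca1 is a metalloprotease that processes the Muc2 gel, Zg16 is a lectin that binds the cell wall of Gram-positive bacteria, and Tff3 is a trefoil peptide of epithelial repair. Agr2 is a disulfide isomerase of the endoplasmic reticulum needed to make Muc2, and is grouped here with the secreted products. Membrane mucins are anchored in the apical membrane, mostly of absorptive cells, and form the glycocalyx; Muc3 and Muc13 are the ones known from the intestinal brush border, while Muc1 and Muc4 are found on many epithelia.

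Promoter stretches are shown for a pair of membrane mucins that were higher on both arrays titled with prebiotics (Muc3 and Muc13) and for a pair of goblet cell genes that were lower on them (Agr2, and Muc2 on the probe set with its higher mean). They are the bases just upstream of the annotated start, 5′ to 3′ on the gene's strand, from RefSeq on GRCm38.p6, a table that held 7 of the 10 members (not Tff3, Clca1 or Zg16). Muc3 is chr5:137166049-137166296 on the minus strand, Muc13 chr16:33793787-33794036, Muc2 chr7:141690090-141690339 and Agr2 chr12:35992675-35992924, all plus strand. Capitals mark matches on either strand to TTTATG (CDX2), CAGNTG (an E-box of the ATOH1 type), CAAAGTCCA (HNF4) or AGGTCANAGGTC (DR1). DR1 is a direct repeat of AGGTCA bound by nuclear receptors, and was added after the Muc3 sequence had been seen. The letters used leave out the last A of the second AGGTCA, where Muc3 has a T, so the full repeat is not matched.
Muc3: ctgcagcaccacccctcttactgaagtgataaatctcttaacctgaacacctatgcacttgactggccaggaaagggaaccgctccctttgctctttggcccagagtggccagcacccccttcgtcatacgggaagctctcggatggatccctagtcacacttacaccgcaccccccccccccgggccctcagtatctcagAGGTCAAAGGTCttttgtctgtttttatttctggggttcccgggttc
Muc13: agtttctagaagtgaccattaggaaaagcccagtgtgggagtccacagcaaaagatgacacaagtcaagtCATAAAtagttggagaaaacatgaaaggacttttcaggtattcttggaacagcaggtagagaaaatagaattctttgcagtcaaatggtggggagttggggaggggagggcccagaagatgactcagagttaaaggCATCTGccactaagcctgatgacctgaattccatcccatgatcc
Muc2: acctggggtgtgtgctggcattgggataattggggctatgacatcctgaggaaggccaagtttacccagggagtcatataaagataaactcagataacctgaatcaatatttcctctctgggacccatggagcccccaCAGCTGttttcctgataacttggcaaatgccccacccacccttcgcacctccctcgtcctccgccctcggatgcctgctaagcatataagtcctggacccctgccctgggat
Agr2: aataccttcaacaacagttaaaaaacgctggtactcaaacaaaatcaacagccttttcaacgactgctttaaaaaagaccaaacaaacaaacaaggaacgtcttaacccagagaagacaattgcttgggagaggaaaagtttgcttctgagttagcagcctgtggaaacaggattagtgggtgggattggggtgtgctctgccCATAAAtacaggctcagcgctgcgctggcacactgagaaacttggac

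The Muc3 stretch held a match to the DR1 letters that begins 47 bases before the end of the window. Those letters occur in 0.0761% of 32851 RefSeq promoter windows of 250 bases. They were set after that stretch had been seen, so the match was fixed in advance and the share is no independent background. Muc13 and Agr2 each held a CDX2 match (10.8% of windows), and Muc13 and Muc2 each held 1 E-box (44.8% of windows). Of the windows not shown, that of Muc4 held 0 matches to the CDX2, E-box, HNF4 and DR1 letters. Those of Fcgbp and Muc1 each held 3 E-boxes. Muc13 has an additional annotated start, and upstream of that one lies an HNF4 match (0.384% of windows) on the opposite strand, at chr16:33794303-33794311. It is shown in its 30 bases of the plus strand, since HNF4 letters were rare among promoters. Capitals mark the HNF4 match alone here; the stretch also holds a CAGNTG match, left in lower case.
Muc13, additional start: acagttgtccTGGACTTTGagtcaaggata

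The motif CACCC, bound by KLF4 among other factors and present in 52% of windows, occurred 3 times upstream of Muc3, 3 times upstream of Muc2, 2 times each upstream of Agr2 and Muc4 and 4 times upstream of Fcgbp. It did not occur in the windows of Muc1 or Muc13. TGTTTAC (for FOXA factors), GATAAG (for the family of GATA factors) and ACGTG (the core shared by XBP1 and CREB3L sites) had 0 matches in the windows of all 7 members. A match describes letters, not binding, and the arrays do not measure which start was used.

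The deposited values are log2 expression from RMA, so a difference of 1 is a 2-fold change. The median over all probe sets was 2.92 to 2.93 on the 4 arrays, and arrays correlated across probe sets with Pearson's r of 0.984 to 0.988. A gene was tested if it reached, on at least 1 array, that array's median of single-symbol probe sets (2.99 to 3.01), which 13083 genes did. Of the members 9 of 10 passed; Muc1 did not. Apoe, which checks the genotype labels, had 3.90 and 4.09 on the WT arrays and 2.83 and 3.13 in KO, so its values follow those labels; where its probes lie relative to the deletion was not analysed here. As a check that epithelium was present, 9 general epithelial markers on the array had a mean of 9.34 to 9.46 on the 4 arrays. Such markers cannot tell caecum from other epithelial tissue. Levels of different genes are not compared, because probe sets differ in their response.

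The membrane mucins Muc3, Muc13 and Muc4 were higher on both arrays titled with prebiotics than on both arrays without, in KO as in WT by title. The same order held for 25.5% of all genes tested. In limma over both genotypes Muc3 and Muc13 rose and Muc4, with the largest difference of the 3, just missed the threshold. No secreted goblet cell product passed. Of the 6, 4 had a negative difference, Agr2 the largest, while 55.1% of all genes had a positive one. The 3 membrane mucins had a median log2 difference of 0.35 and the 6 secreted products one of -0.08, beside 0.02 over all 13083 genes. The secreted median was -0.16 in the KO pair, with 1 of 6 above 0, and 0.004 in the WT pair by title, with 3 of 6. In the same order the membrane median was 0.36 and 0.33, and that of all genes measured 0.04 and 0.02.

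Muc3, a brush border mucin with a long glycosylated extracellular domain, had log2 values of 11.55 on the WT array titled without prebiotics and 11.88 on the one titled with them, and of 11.58 on the KO array without and 11.94 on the KO array with prebiotics. The arrays fell into a lower and an upper pair that followed diet by title and did not overlap. Within the lower pair the gap was 0.03 and within the upper pair 0.06, both smaller than the median size of a KO to WT difference over all genes on the same diet (0.14 and 0.13), so neighbours within a pair were not set apart beyond that spread. Over both genotypes Muc3 rose with prebiotics by 0.35 (SE 0.04, limma adjusted p = 0.0063), a 1.27-fold change. It was higher in both of 2 pairs.

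Muc13, a smaller membrane mucin, had 11.51 and 11.74 in WT (without, then with prebiotics by title) and 11.59 and 11.90 in KO. Again both prebiotic arrays by title were above both others, with the KO array the higher in each diet. Muc13 rose with prebiotics by 0.27 (SE 0.04, limma adjusted p = 0.023), and was higher in both of 2 pairs.

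Muc4, a large membrane mucin that can bind ErbB2, had 6.17 and 6.64 in WT and 5.88 and 6.66 in KO, in the same order of diets. The KO array without prebiotics was the lowest, and the arrays titled with prebiotics lay within 0.02 of each other. Its prebiotic difference was 0.62 (SE 0.13, limma adjusted p = 0.057), or 1.54-fold. Muc4 was thus not called, although its difference was larger than those of Muc3 and Muc13. Its limma adjusted p ranged over the alternatives from 0.022, with each array centred on its median, and 0.049, with the mean over probe sets per gene, to 0.12 with no filter, 0.17 without the trend in limma's variance and 1 with the WT pair exchanged. A probe set that names both Muc4 and Muc20 stood at 2.88 to 3.02, near the filter value, and was not used. Muc1, which coats glandular epithelia, had 2.75, 2.78, 2.73 and 2.87 in the same order of arrays, below the filter on each array, so it was not tested and its 4 values span 0.13.

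**Figure D1:**
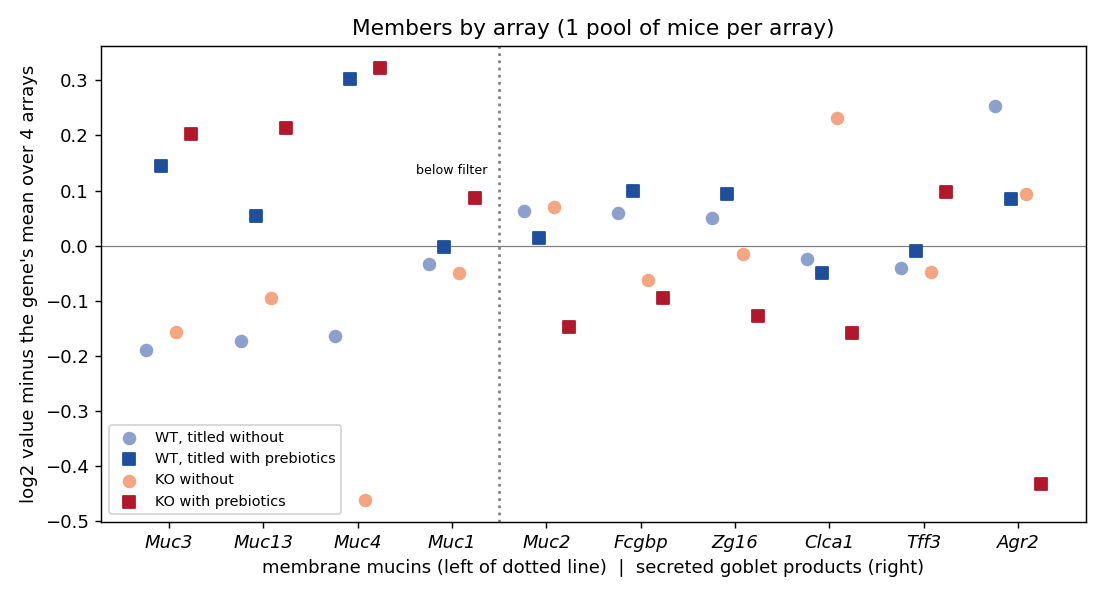
Log2 value of each member on each of the 4 arrays after subtracting the gene's mean over the arrays (y axis), with membrane mucins left of the dotted line and secreted goblet products right of it; circles are arrays without and squares arrays with prebiotics (WT by title), 1 pool of mice per array and no error bars. Squares lie above circles for Muc3, Muc13 and Muc4, while the KO prebiotic array is the lowest for Muc2, Fcgbp, Zg16, Clca1 and Agr2; Muc1 was below the expression filter.

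Among the secreted products, Muc2, the gel-forming mucin, had 12.17 and 12.12 in WT (without, then with prebiotics by title) and 12.18 and 11.96 in KO, on the probe set with its higher mean. The 3 arrays other than KO with prebiotics lay within 0.06 of each other. The difference over both genotypes was -0.13 (SE 0.05, limma adjusted p = 0.24). The other Muc2 probe set had 11.58, 11.64, 11.63 and 11.44; it too was lowest on the KO prebiotic array, but in the WT pair its difference was 0.07 where the former had -0.05. The direction of Muc2 in the WT pair therefore depends on the probe set.

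Agr2, the isomerase that Muc2 synthesis needs, had 9.58 and 9.41 in WT and 9.42 and 8.89 in KO, in that order of diets. The KO prebiotic array stood apart from the other 3, which spanned 0.17. Its prebiotic difference was -0.35 (SE 0.09, limma adjusted p = 0.13), lower in both pairs. With each array centred on its median the adjusted p of Agr2 was 0.042, so its place beside the threshold depends on the scaling. Clca1, the Muc2-processing protease, had 10.25 and 10.23 on the WT arrays and 10.51 and 10.12 on the KO arrays. The WT values were nearly alike, and the KO arrays were the highest and the lowest of the 4. Its difference over both genotypes was -0.21 (SE 0.08, limma adjusted p = 0.32).

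Fcgbp, the Muc2-associated protein, had 10.79 and 10.83 in WT and 10.67 and 10.64 in KO. Zg16, the lectin, had 11.13 and 11.17 on the WT arrays and 11.06 and 10.95 on the KO arrays. Both were lower on each KO array than on each WT array, and their diet differences within a pair lay between -0.11 and 0.04. Their prebiotic differences were 0.00 for Fcgbp (SE 0.05, limma adjusted p = 0.99) and -0.03 for Zg16 (SE 0.05, limma adjusted p = 0.85). Tff3 was the secreted product that was highest on the KO prebiotic array: it had 9.004 and 9.036 on the WT arrays and 8.998 and 9.142 on the KO arrays. Its whole range was 0.14, and its prebiotic difference was 0.09 (SE 0.08, limma adjusted p = 0.69).

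In the comparison over both genotypes limma called 130 genes higher (0.994% of 13083) and 34 lower (0.260%). With each array centred on its median these counts were 216 and 108. Of the 9 members tested, 2 were called higher, Muc3 and Muc13, and 0 lower. Both arrays titled with prebiotics lay above both others for 4 members (Muc3, Muc13, Muc4 and Tff3), against a background of 25.5% of genes. They lay below both others for 3 (Agr2, Clca1 and Muc2, the last not on its other probe set), against 17.4%. Some margins were small. The nearest values with and without prebiotics were 9.408 and 9.419 for Agr2 and 10.230 and 10.254 for Clca1. They were 12.124 and 12.173 for Muc2 and 9.036 and 9.004 for Tff3. After exchange of the WT pair limma made 0 calls, 0% of genes tested, with 170 at an unadjusted p under 0.05; Muc3 then had a difference of 0.01, Muc13 of 0.04 and Muc4 of 0.16, so these calls rest on the titles. Agr2 and Clca1 each had -0.18 after the exchange. Without the trend in limma's variance the adjusted p of Muc3 was 0.31 and that of Muc13 was 0.41.

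**Figure D2:**
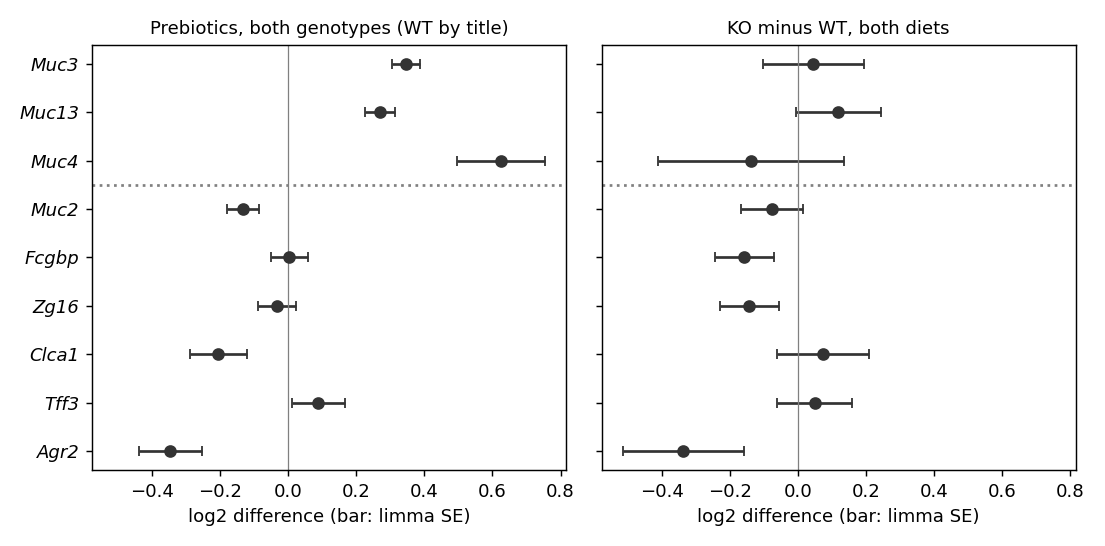
Log2 differences of the 9 members tested (x axis), for prebiotics over both genotypes with WT by title (left) and for KO minus WT over both diets (right); points are limma estimates from 4 arrays, bars their SE, and the dotted line parts membrane mucins from secreted products. Muc3, Muc13 and Muc4 lie at 0.27 to 0.62 on the left, whereas on the right Agr2 lies farthest from 0, at -0.34.

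Within the KO pair, whose labels do not conflict, the prebiotic array was higher for all 3 membrane mucins that passed the filter: by 0.78 for Muc4 (1.72-fold), 0.36 for Muc3 (1.28-fold) and 0.31 for Muc13 (1.24-fold). All 3 were past a 1.2-fold limit, as were 17.1% of 12216 genes, and Muc4 was past a 1.5-fold limit, as were 2.63%. Of the 6 secreted products 5 were lower, and 2 were past the 1.2-fold limit, Agr2 at -0.53 (1.44-fold lower) and Clca1 at -0.39 (1.31-fold lower), a limit that 10.7% of genes passed on the lower side. The remaining differences were -0.22 for Muc2, -0.11 for Zg16, -0.03 for Fcgbp and 0.14 for Tff3. The KO prebiotic array gave the lowest of the 4 values for 5 of 6 secreted products, and for 20.6% of all genes; it gave the highest for 3 of 3 membrane mucins, and for 30.0% of all genes. There is no replicate check of these differences.

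Between the WT arrays, the one titled with prebiotics was higher by 0.46 for Muc4, 0.33 for Muc3 and 0.23 for Muc13. The 1.2-fold limit was passed by 2 of them, Muc4 and Muc3, and by 15.7% of 12223 genes. Of the secreted products 0 of 6 passed it in either direction, where 11.3% of genes were past it on the lower side. They ranged from -0.17 for Agr2 to 0.04 for Zg16. The 2 pairs share no array. Of the 9 members 7 had the same sign in both, with Muc2 taken from the probe set with its higher mean. The other 2, Fcgbp and Zg16, had small differences. With the mean over probe sets per gene, 3 members differed in sign. The share of all genes with the same sign in both pairs is not given here. Agr2, Clca1 and Muc4 were the members with the largest gap between the pairs, the difference in KO minus that in WT being -0.36, -0.36 and 0.32. No residual degree of freedom is left to test that gap. With the WT pair exchanged 7 of 9 members had opposite signs, as the exchange only turns the sign of each WT difference.

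**Figure D3:**
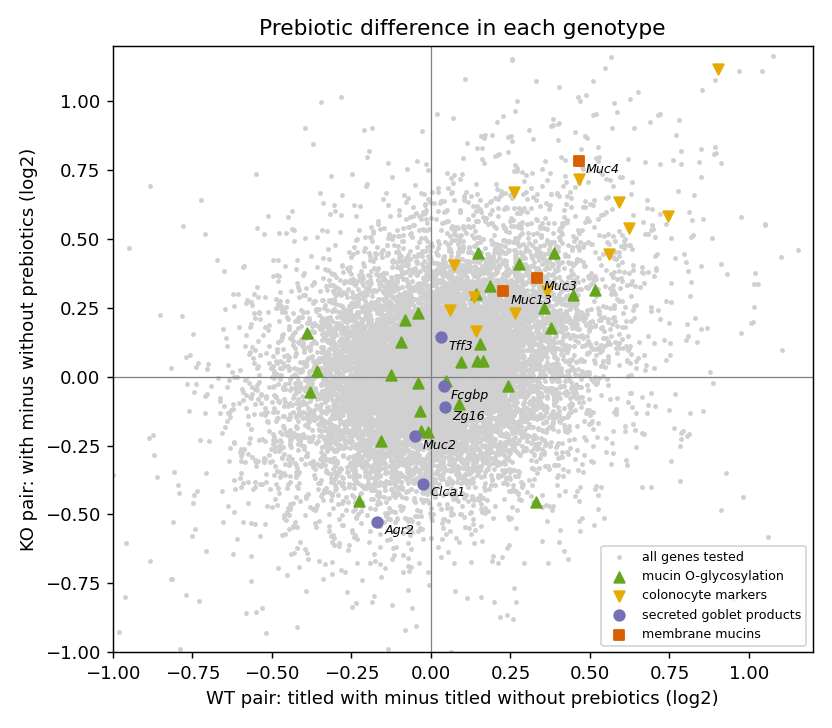
Each gene's log2 prebiotic difference in the WT pair by title (x axis) against that in the KO pair (y axis), for 13083 genes (grey, with 82 outside the plotted range) and for members and other lists (coloured); a point is 1 gene, with no error bar. Muc4, Muc3 and Muc13 lie at the upper right among the colonocyte markers, while the secreted products lie between -0.17 and 0.04 on the x axis and reach down to -0.53 on the y axis.

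No member passed the genotype test. Over both diets limma called 0 of 13083 genes (0%), 430 having an unadjusted p under 0.05, and the smallest adjusted p of a member was 0.999. KO minus WT was -0.34 for Agr2 (SE 0.18), -0.16 for Fcgbp (SE 0.09), -0.14 for Zg16 (SE 0.09), -0.14 for Muc4 (SE 0.27) and -0.08 for Muc2 (SE 0.09). It was 0.12 for Muc13, 0.07 for Clca1, 0.05 for Tff3 and 0.04 for Muc3. The KO arrays were both below the WT arrays for 2 of 9 members, Fcgbp and Zg16, against 14.0% of all genes, and above them for 0, against 16.2%. Leaving out the KO prebiotic array, the difference of Agr2 was -0.074, and leaving out the other KO array it was -0.60. This comparison does not depend on which WT array had prebiotics. With diet as a block in the fit no member was called either, the smallest adjusted p being 0.42 for Agr2.

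By diet, with WT by title, KO against WT without prebiotics gave a difference of -0.30 for Muc4, the member past the 1.2-fold lower limit (10.9% of 12265 genes were), and of 0.256 for Clca1, just under the upper limit of 0.263 on the log2 scale that 12.0% of genes passed. With prebiotics by title, Agr2 had -0.52 and was the member past the lower limit (8.43% of 12120 genes were), and Zg16 and Muc2 had -0.22 and -0.16. On the upper side 0 members passed, against 12.1% of genes. Agr2 was lower in KO on either diet by title, at -0.16 without and -0.52 with prebiotics. These splits depend on the WT labels. With the WT pair exchanged, Agr2 had 0.01 without and -0.68 with prebiotics. Without prebiotics Muc4 then had -0.76, Muc3 -0.30 and Clca1 0.28, the last past the upper limit (11.6% of 12278 genes were). With prebiotics Muc4 then had 0.49, Muc3 0.39 and Muc13 0.39, all past the upper limit (18.7% of 12203 genes were).

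The wider mucus pathway was described with gene lists chosen, like the members, with earlier results of these data known. Of the other mucins and trefoil peptides 4 of 14 were measured above the filter, and 1 rose: Muc3a, a gene annotated beside Muc3, with 7.53 and 8.19 on the WT arrays and 7.65 and 8.21 on the KO arrays, by 0.61 (SE 0.10, limma adjusted p = 0.019; -0.05 with the WT pair exchanged). Muc3a had non-overlapping arrays in the same order as Muc3; how far probes of one could detect transcripts of the other was not tested. Tff2, a gastric trefoil peptide, had a difference of 0.34 with values of 2.87 to 3.41, near the filter value. The membrane mucin Muc16 had a difference of 0.20, and neither passed. The gastric and airway gel-forming mucins Muc5ac, Muc5b and Muc6 were at 2.54 to 2.88 on the 4 arrays, below the filter.

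Of 15 regulators of goblet cell fate 1 rose and 0 fell: Klf4, a factor of goblet cell and surface epithelial differentiation, from 8.22 to 8.81 in the WT pair by title and from 8.25 to 8.78 in KO, by 0.56 (SE 0.08, limma adjusted p = 0.016), or -0.03 with the WT pair exchanged. Foxa3 had 0.41 and Foxa1 0.26, forkhead factors that were not called. Spdef, the factor of goblet cell maturation, had -0.02, and Atoh1, the factor of secretory fate, which is named here after its values were seen, 0.22. Creb3l1 had the largest genotype difference of this list, -0.36, and was not called. The median prebiotic difference of the list was 0.06. Foxa3 (3.30 to 3.78) and Spdef (3.71 to 3.92) stood not far above the filter value.

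Of 30 measured enzymes of mucin O-glycosylation 0 were called in either direction, with a median of 0.07 and 18 of 30 above 0. St6galnac6, a sialyltransferase, had 0.42 (limma adjusted p = 0.16) and B3gnt3, which extends core 1 chains, had 0.42 (limma adjusted p = 0.054). Gcnt4 had 0.37. The largest genotype differences were those of Galnt6, which starts O-glycans, at -0.38, and Gcnt3, which makes branched cores, at 0.30.

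Of 23 measured genes of mucus folding, release and processing 2 rose and 0 fell, with a median of -0.01. The genes that rose were those of the meprin subunits, brush border metalloproteases of which meprin beta is known to cleave Muc2 from the epithelium. Mep1b had 6.85 and 8.21 on the WT arrays and 6.93 and 8.25 on the KO arrays, and rose by 1.34 (SE 0.10, limma adjusted p = 0.00043). Mep1a rose by 0.60 (SE 0.08, limma adjusted p = 0.012). With the WT pair exchanged these differences were -0.02 and -0.08. Sytl2, a regulator of granule docking, had -0.48 and was not called, with -0.83 in KO and -0.12 in the WT pair. Capn8 had a genotype difference of 0.40 and was not called.

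**Figure D4:**
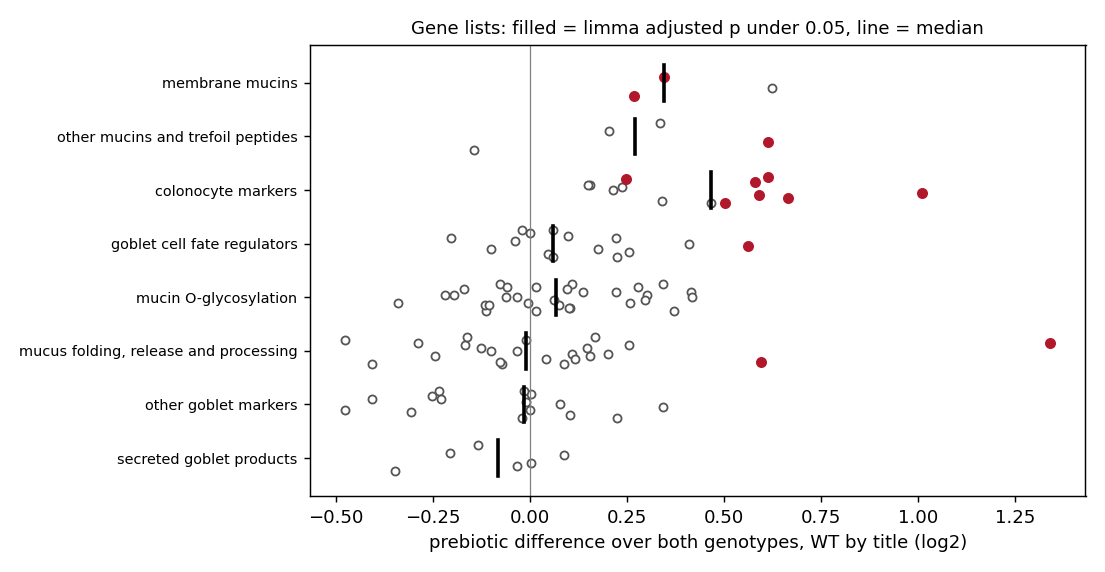
Prebiotic difference over both genotypes with WT by title (x axis, log2) for the measured genes of 8 lists (y axis); a point is 1 gene, filled where limma's adjusted p was under 0.05, and the black line is the list's median. Membrane mucins (median 0.35) and colonocyte markers (median 0.47) lie to the right of 0, and secreted goblet products (median -0.08) hold 0 filled points.

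Of the epithelial cell types, colonocyte markers held the most calls. In bulk tissue, fewer cells of a type and less RNA per cell cannot be told apart. Of 13 measured colonocyte markers 7 rose and 0 fell, with a median of 0.47, led by Slc51a (1.01), Ceacam20 (0.66) and the brush border cadherin Cdhr2 (0.61); with the WT pair exchanged 0 were called. The sodium-proton exchanger Slc9a3, also among the 7, had 0.50 and a genotype difference of 0.70 that was not called. Their mean log2 value was 9.38 and 9.78 on the WT arrays, without and with prebiotics by title, and 9.37 and 9.86 on the KO arrays, the same order by diet as Muc3, Muc13 and Muc4. All 13 were above 0, as were 55.1% of all genes, and what part this had in the mucin differences was not tested.

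Of 15 other goblet cell markers, 5 of which also stand in other lists here, 0 were called, 6 were above 0 and 9 below, with a median of -0.01. Their mean was 5.95 and 5.96 on the WT arrays and 6.00 and 5.83 on the KO arrays, so the KO prebiotic array was the lowest here too. In the KO pair 10 of 15 were lower with prebiotics, as were 43.9% of all genes, and 5 were past 1.2-fold, as were 10.7%: Best2, Ccl9, Retnlb, Spink4 and Sytl2. Retnlb, a goblet cell antibacterial protein, had 9.07 and 9.07 on the WT arrays and 9.09 and 8.58 on the KO arrays; it, Ccl9 and Spink4 are named after their values were seen. Among markers of deep crypt secretory and Paneth cells 0 of 7 were called, and single genes differed widely on the KO prebiotic array: Defa24 had 6.21 there and 2.68 to 2.91 elsewhere, Lyz1 had 6.02 there and 3.68 to 4.13 elsewhere, and Ang4 had 5.71 there and 6.16 to 7.42 elsewhere. Among general epithelial markers 1 of 9 rose, Elf3 (0.55), with a median of 0.07. The part of these markers in the lower secreted products on that array was not tested.

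With prebiotics 3 of 10 smooth muscle markers fell, Synpo2, Myl9 and Myh11 (list median -0.21), and 1 of 10 fibroblast markers rose, the collagen gene Col1a1 (list median 0.24). For genotype both lists were above 0 in 10 of 10 members, as were 52.9% of all genes, with medians of 0.32 and 0.40 beside 0.01 over all genes, and 0 called. Among enteroendocrine markers 3 of 8 rose, the hormone genes Nts, Gcg and Cck (list median 0.65). Cck had 3.32 and 4.04 on the WT arrays and 2.76 and 4.48 on the KO arrays, in part near the filter value. Over all genes 0.994% were called higher and 0.260% lower. With the WT pair exchanged 0 smooth muscle, fibroblast or enteroendocrine markers were called. Of tuft cell markers 0 of 6 were called (median 0.06), and of leukocyte markers 0 of 8 (median -0.04). The tuft cell markers had a mean of 2.99 to 3.06 on the 4 arrays, near the filter value. The mean of the leukocyte markers was 3.42 on the KO prebiotic array, the lowest of the 4, and 3.79 to 3.85 elsewhere. Their part in the members' differences was not tested.

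Genes whose values over the 4 arrays were most like those of a member were sought among 11955 named genes, by the Euclidean distance between log2 values after subtracting each gene's mean. Closest to Muc2 were Farsb (distance 0.014), Rpn1 (0.017) and Ccdc50 (0.017), against a median distance of 0.30. Closest to Muc3 were Maoa (0.021), Dvl3 (0.031) and Dhrs11 (0.034), against a median of 0.39. Maoa had 10.86 and 11.18 on the WT arrays and 10.91 and 11.26 on the KO arrays. With 4 arrays such likeness is a description of these libraries.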

How the data were processed

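Caecal RNA of 4 groups was measured on 1 array each. The deposited values are log2 intensities summarised per probe set; per the submitters' processing notes the authors used Affymetrix Expression Console and RMA, which subtracts background, equalises the arrays' distributions and compresses differences near background. Versions, settings and genome build are not given in the sources used here, and the log base was taken from RMA. The number of arrays limits the precision.

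Of 41345 probe sets, 23521 had 1 symbol in the platform annotation, 1814 had several and 16010 are unnamed here. The probe set with the highest mean stood for a gene. Identifiers were looked up in RefSeq (GRCm38.p6), which held 99.2% of them and changed 0 symbols. Tests used limma 3.58.1 in R 4.3.3 (lmFit, eBayes with trend), two-sided, with Benjamini-Hochberg adjustment over all genes and a threshold of 0.05. The prebiotic fit had genotype as a term and 1 residual degree of freedom; the genotype fit had no other term and 2. The p-values do not measure the spread between mice or between samples of a group. In the prebiotic fit the residual is the gap between the KO and WT pair differences. In the genotype fit it is the spread between arrays of a genotype, which differ in diet. limma draws each gene's variance towards a trend over all genes. Without that trend the SE of Muc3 in the prebiotic fit was 0.12. Pairs of arrays were compared by size alone, at 1.2-fold and 1.5-fold. The fits were also run on simulated independent values, where the bar was set on the median estimate alone, not on false calls.

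The members and lists were chosen with earlier results of these data known. Named beside the members were, in each list, up to 3 genes with the largest prebiotic and up to 2 with the largest genotype difference, Muc5ac, Muc5b and Muc6 as below the filter, and genes marked in the text. Alternatives were other filters, probe set means, cyclic loess, median centring, no trend, diet as a block, the WT pair exchanged and leaving out each array.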

Additional observations from a re-analysis of the deposited data

How the results depend on the processing

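The counts of the prebiotic comparison over both genotypes, 130 higher and 34 lower, were 68 and 17 with no filter, 216 and 108 with median centring, 21 and 4 without the trend, and 0 and 0 with the WT pair exchanged; leaving out an array leaves no test. A filter at the median of all arrays together, tried after seeing the data, gave 111 and 29. For genotype, leaving out an array gave 0 to 4 genes higher (4 without the KO array kept without prebiotics; a lone array is then assumed to vary like the other group) and 0 lower, and diet as a block gave 8 higher and 4 lower (0 and 0 with the WT pair exchanged as well). With the WT pair exchanged, genes at least 1.5-fold higher and lower were 136 and 253 in the WT pair. These are the main counts turned round, since the exchange only turns the sign of each WT difference. For the same reason 7 members then had pairs of opposite sign. At the same fold, 233 genes were lower in KO without prebiotics, and 420 were higher and 144 lower in KO with them. Of 360 member values under alternatives, 313 kept their direction and side of the threshold or stayed within the spread. Of the others, 5 lost the call, 3 gained it, 13 were counted as changed in sign and 26 as moved beyond the spread. Many of the 360 could not change direction. Other filters, no trend and diet as a block change no estimate, and probe set means change only that of Muc2. In the prebiotic comparison, leaving out either array of a pair gives the difference of the other pair. The count of 313 is therefore no measure of how firm the values are. For values without a p-value, a change of sign was counted as such only where the main value was called or past 1.2-fold. Other changes of sign stand among the rest, such as Agr2 (0.17) and Muc13 (-0.23) in the exchanged WT pair. The call of Muc3 was lost without the trend and with the WT pair exchanged, that of Muc13 also with a filter at the 75th percentile (adjusted p = 0.050). Fcgbp changed sign in the prebiotic comparison, to -0.022 with cyclic loess, -0.030 with median centring and -0.037 with the WT pair exchanged. In the exchanged WT pair Muc3 was -0.33 and Muc4 -0.46, again with only the sign turned. Leaving out an array, genotype differences changed sign within -0.13 to 0.22 for Muc3, -0.036 to 0.27 for Muc13, -0.53 to 0.25 for Muc4, -0.12 to 0.27 for Clca1, -0.18 to 0.032 for Muc2 and -0.022 to 0.12 for Tff3; the sign changed without the KO prebiotic array (Muc3, Muc13, Muc2, Tff3), the KO array without prebiotics (Muc4, Clca1), the WT array titled without (Muc3) or that titled with them (Muc4). The cause was not tested. No paired analysis was possible because the labels carry no replicate numbers; genotype as a term and diet as a block use the crossed groups alone.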
